A study of Canis lupus familiaris with 15 samples.

Results

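Parental HMPOS cells were compared with parental POS cells. POS is a canine osteosarcoma cell line, and HMPOS is a highly metastasizing sub-line of it. The comparison consisted of every row of the deposited table for this pair of lines, 5746 genes out of the 7698 genes named in any of the 3 tables of the study. The question was which genes separated the metastatic sub-line from the line it came from. The study sequenced RNA from 15 libraries in 5 groups. Each group compared here had 3 libraries, and the labels describe both as parental cell lines, that is, cells that had not passed through a zebrafish. The labels name no treatment, genotype or allele for either group. The methods describe the culture of HMPOS in Iscove's modified Dulbecco's medium with fetal bovine serum and give no separate culture for POS, so culture and cell line cannot be told apart here. Each line is 1 cell line, so the comparison describes these lines and not metastatic cells in general.

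The values were FPKM, in which the fragments of a transcript are scaled by its length and by the total mapped. Each gene had 1 FPKM value per group, pooled by the authors over its libraries. The spread between libraries and the depth are therefore unknown, and no SD, interval or test is given for any difference. The table holds only the genes that the authors' own test had marked as significant. A gene missing from it may have been equal in both lines, too low to test, or absent. All ratios were recomputed as HMPOS over POS, and the threshold for counting a gene was a difference over 2-fold, the fold used in the study's methods.

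Osteosarcoma is a tumour of bone-forming cells, and its cells typically deposit a matrix of type I collagen and non-collagenous bone proteins. Interferons are cytokines that cells secrete after sensing viral or misplaced nucleic acids. They act through receptors, JAK kinases and transcription factors on a large set of interferon-induced genes, among them the machinery that presents antigens on MHC class I. Tumour cells that spread must also leave their matrix, which depends on adhesion receptors, matrix proteins and the proteases that cut them.

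Of the 5746 genes, 2743 (47.7%) were higher in HMPOS and 3003 (52.3%) were higher in POS. The median log2 ratio was −0.31 over the 5718 genes with a value above 0 in both lines. Over 2-fold differences were found for 1587 genes (27.6%), of which 488 (8.49% of all) were higher in HMPOS and 1099 (19.1% of all) were higher in POS. Of the over 2-fold differences, 30.7% were thus higher in HMPOS. This split depended on the point taken as equality. When the ratios were centred on their median, 1006 genes were over 2-fold higher in HMPOS and 759 in POS, a share of 57.0% higher in HMPOS. The table holds only called genes, so its median does not estimate a scaling offset between the lines. Centred counts here and below show what this shift does and cannot tell which scaling is right. Over 4-fold differences were counted for 139 genes on the HMPOS side and 387 on the POS side, and over 16-fold differences for 41 and 97. The smallest listed difference was 0.23 on the log2 scale among genes higher in HMPOS and 0.24 in size among genes higher in POS, so a gap around equality is built into the table. Gene lists are described below by their counts and median beside these values for all listed genes.

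**Figure D1:**
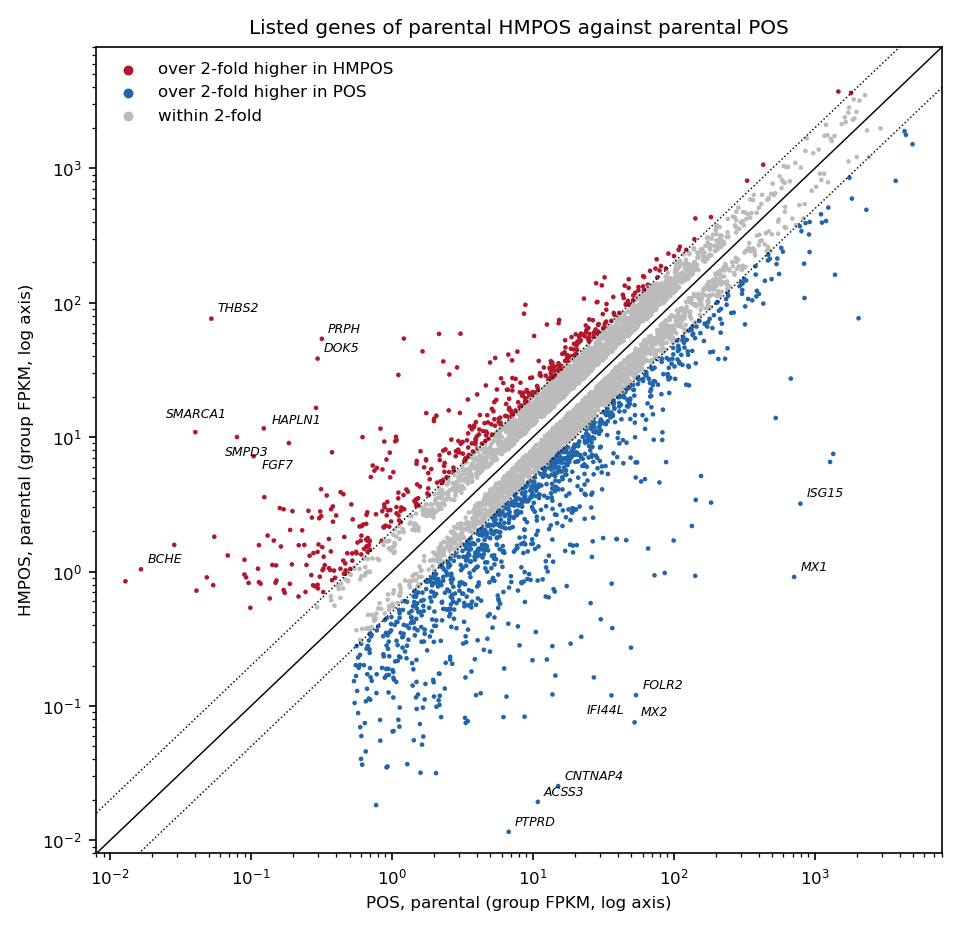
Group FPKM of each listed gene above 0 in both lines, POS on the x axis and HMPOS on the y axis, both axes logarithmic; each point is 1 gene, the solid line marks equality and the dotted lines a 2-fold difference. The empty band along the solid line comes from the table holding only called genes, and the points far from it include THBS2 (76.2 FPKM in HMPOS, 0.0523 in POS) and MX1 (0.911 in HMPOS, 714 in POS).

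The labelled cell type was checked against its markers. Of 12 osteoblast markers, 8 were listed and thus had a value in both lines. SPARC (osteonectin), a glycoprotein of bone matrix, was among the most abundant listed transcripts, with 1775 FPKM in HMPOS and 4439 in POS. The osteoblast transcription factor SP7 had 54.5 FPKM in HMPOS and 41.7 in POS, and DLX5 had 61.8 and 95.2. The levels were unequal for others, since BGLAP (osteocalcin) had 27.3 FPKM in HMPOS and 676 in POS, and SPP1 (osteopontin) had 1.73 and 13.8. Of the 8 listed markers, 6 were higher in POS, 4 of them over 2-fold (50.0%, against 19.1% of all listed genes). The 2 higher in HMPOS were within 2-fold. Both lines thus carried transcripts of this lineage, at unequal levels. The other 4 markers, RUNX2, ALPL, COL1A2 and IBSP, were not listed, and their levels are unknown here. None of 12 leukocyte markers and none of 9 skeletal muscle markers was listed. Among other lineages, the endothelial list had only KDR of its 10 symbols (0.146 FPKM in HMPOS, 1.73 in POS), the epithelial list had only CDH1 of 10 (1.49 and 4.30), and the adipocyte list had only PPARG of 7 (0.942 and 0.268). The levels of KDR, CDH1 and PPARG were low in both lines. KDR shares its locus with another row, and how reads were divided between them is uncertain. The chondrocyte list had 3 of its 9 symbols. SOX9 had 11.9 FPKM in HMPOS and 18.7 in POS, ACAN had 2.99 and 25.9, and COL2A1 had 1.52 and 0.321.

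Of the gene lists, the genes induced by interferon had the lowest median ratio and a single direction. Of 73 symbols on the list, 41 rows were present, and all 41 were higher in POS. The difference was over 2-fold for 40 of them (97.6%, against 19.1% of all listed genes), over 4-fold for 35, over 16-fold for 20 and over 64-fold for 11. The median log2 ratio was −3.73. The genes lay on 23 chromosomes, and the direction of all 41 was the same when the ratios were centred on the median of all listed genes.

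The effectors that act on viruses directly included the lowest log2 ratios of this list, those of MX1 and MX2. Their median was −4.73, and the class ranged up to −1.01. The dynamin-like GTPases MX1 and MX2, which block incoming viral particles, are neighbours on chromosome 31 (chr31:35905234-35929863 for MX1 and chr31:35860595-35884282 for MX2, CanFam3.1). MX1 had 0.911 FPKM in HMPOS and 714 in POS, the lowest log2 ratio in the table at −9.61. MX2 had 0.0755 FPKM in HMPOS and 52.7 in POS. The oligoadenylate synthetases, which make the second messenger that activates RNase L, were likewise low in HMPOS. OAS1 had 3.26 FPKM in HMPOS and 184 in POS, OAS2 had 0.976 and 86.2, and OAS3 had 0.938 and 73.0. RSAD2 (viperin), a radical enzyme that makes a chain-terminating nucleotide, had 0.122 FPKM in HMPOS and 13.8 in POS, and IFIT2, which binds viral RNA, had 0.163 and 27.1. The membrane tether BST2, which holds budding virions on the cell surface, had 2.18 FPKM in HMPOS and 134 in POS. The restriction factor TRIM22 was listed at 0 in HMPOS and at 1.22 FPKM in POS. EIF2AK2 (PKR), a kinase that stops translation on double-stranded RNA, was better expressed in HMPOS than these, at 6.49 FPKM against 53.6 in POS. All 17 rows of this class were over 2-fold higher in POS (100%, against 19.1% of all), counting OASL on both of its rows.

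The ubiquitin-like modifier ISG15 and its conjugation machinery shared the direction but not the size of the difference. ISG15 itself had 3.20 FPKM in HMPOS and 791 in POS. Its activating enzyme UBA7 had 1.78 and 31.5, although UBA7 shares its locus with another row. The ligase HERC6 had 4.60 FPKM in HMPOS and 79.02 in POS. The conjugating enzyme UBE2L6 was the best expressed of the 4 in HMPOS, at 59.9 FPKM against 215 in POS. The modifier thus differed far more than the enzyme that passes it on.

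Upstream of these effectors, the sensors of nucleic acids were all higher in POS, with 5 of 5 listed rows over 2-fold (100%, against 19.1% of all). The RNA helicase sensors DDX58 (RIG-I), IFIH1 (MDA5) and DHX58 (LGP2) had 3.42, 1.48 and 0.442 FPKM in HMPOS. In POS their levels were 143, 65.7 and 30.3 FPKM. The endosomal receptor TLR3 had 6.10 FPKM in HMPOS and 32.8 in POS, and the DNA sensor MB21D1 (cGAS) had 0.262 and 4.49. Among the kinases and factors, 3 of 7 listed were over 2-fold higher in POS (42.9%, against 19.1% of all). IRF9, the DNA-binding part of the ISGF3 complex, had 9.57 FPKM in HMPOS and 72.0 in POS. IRF1, another factor of this family, had 5.34 and 11.9. The kinase JAK1, which sits on the interferon receptors, was within 2-fold, at 74.5 FPKM in HMPOS and 112 in POS. The phosphatase PTPN2, which opposes JAK signalling, went the other way, with 71.2 FPKM in HMPOS and 47.8 in POS. Of the interferon genes themselves, only IFNE was listed, at 0 in HMPOS and 0.801 FPKM in POS (named after its values were seen). The levels of the others are unknown here, since a gene that is not listed may be equal in both lines. Over the 15 listed rows of this list, 9 were over 2-fold higher in POS (60.0%, against 19.1% of all) and 0 in HMPOS.

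**Figure D2:**
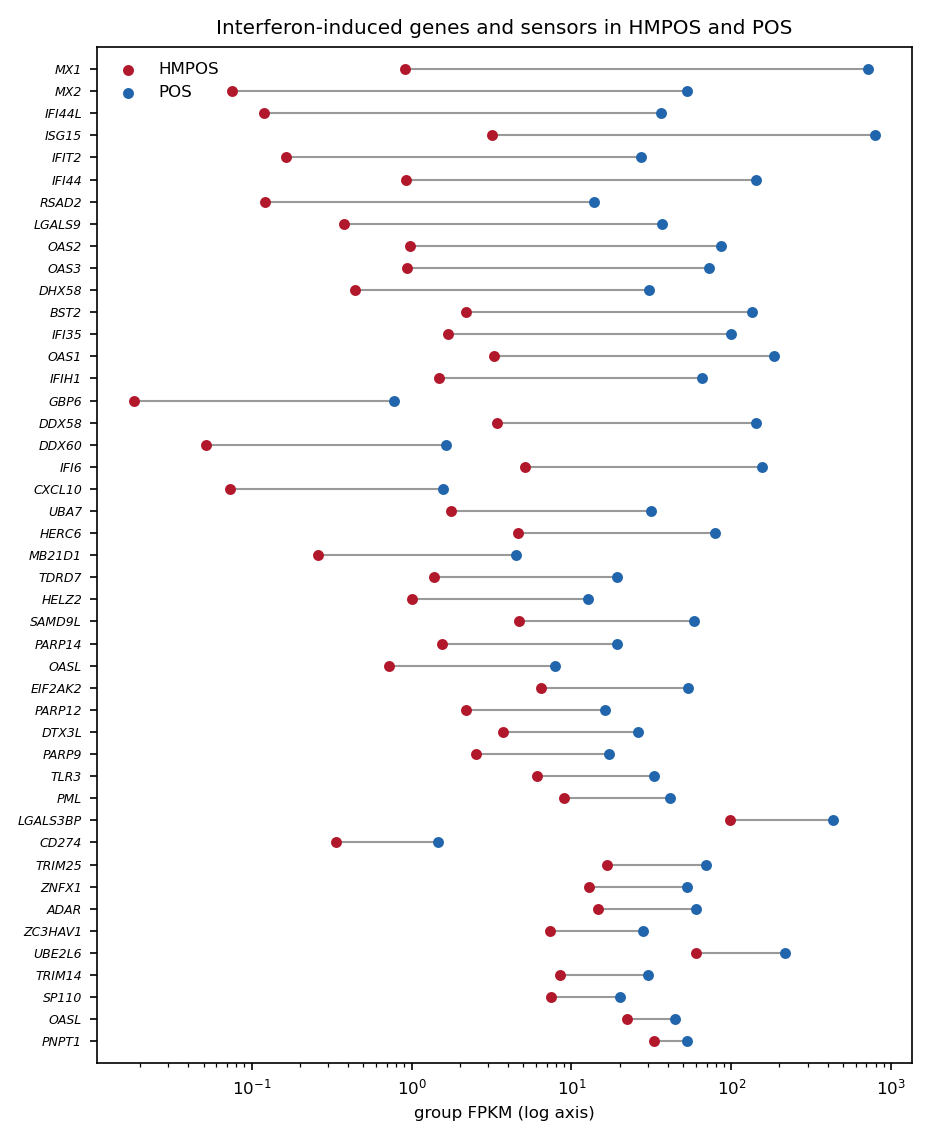
Group FPKM on a logarithmic x axis for the interferon-induced genes and the nucleic acid sensors above 0 in both lines, 1 gene per line, red for HMPOS and blue for POS, ordered by ratio. Every red point lies left of its blue point, and the gap narrows from MX1 (0.911 and 714 FPKM) to PNPT1 (32.7 and 52.5).

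Antigen presentation on MHC class I followed the same direction, with 12 of 18 listed rows over 2-fold higher in POS (66.7%, against 19.1% of all), 1 over 2-fold higher in HMPOS (5.56%, against 8.49%) and a median log2 ratio of −1.98. B2M, the invariant light chain of every class I molecule, had 808 FPKM in HMPOS and 3753 in POS. The canine heavy chains DLA88, DLA-12, DLA-64 and DLA-79 had 38.2, 69.1, 45.8 and 28.1 FPKM in HMPOS. In POS they had 207, 320, 241 and 91.3 FPKM. These heavy chain genes are close copies, so how reads were divided between them is uncertain. TAP1, which carries peptides into the endoplasmic reticulum, had 20.9 FPKM in HMPOS and 81.7 in POS, and TAPBP (tapasin), which loads them, had 107 and 337. The immunoproteasome subunits PSMB8 and PSMB9 had 0.135 and 2.90 FPKM in HMPOS against 2.37 and 20.3 in POS. NLRC5, the transactivator of class I genes, had 1.59 FPKM in HMPOS and 8.83 in POS. The aminopeptidase LNPEP was the exception over 2-fold, with 4.08 FPKM in HMPOS and 1.27 in POS, and the chaperone CALR had 635 and 423.

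Chemokine and cytokine genes were few in the table, with 17 of 88 symbols listed. Of these, 13 were higher in POS, 8 of them over 2-fold (47.1%, against 19.1% of all), and 3 were over 2-fold higher in HMPOS (17.6%, against 8.49%). CCL5, a chemokine for T cells, had 0.391 FPKM in HMPOS and 7.84 in POS. CXCL14 stood out in the other direction, at 20.4 FPKM in HMPOS and listed at 0 in POS. Of 9 listed cytokine receptors, 7 were higher in POS (against 52.3% of all). Over 2-fold higher were 4 in POS (44.4%, against 19.1%) and 1 in HMPOS (11.1%, against 8.49%). IL1R1, the signalling receptor of interleukin 1, had 4.88 FPKM in HMPOS and 62.4 in POS. IL11RA, the receptor chain for interleukin 11, had 58.9 FPKM in HMPOS and 3.06 in POS. CXCR4, the receptor of CXCL12, had 3.00 FPKM in HMPOS and 0.887 in POS.

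**Figure D3:**
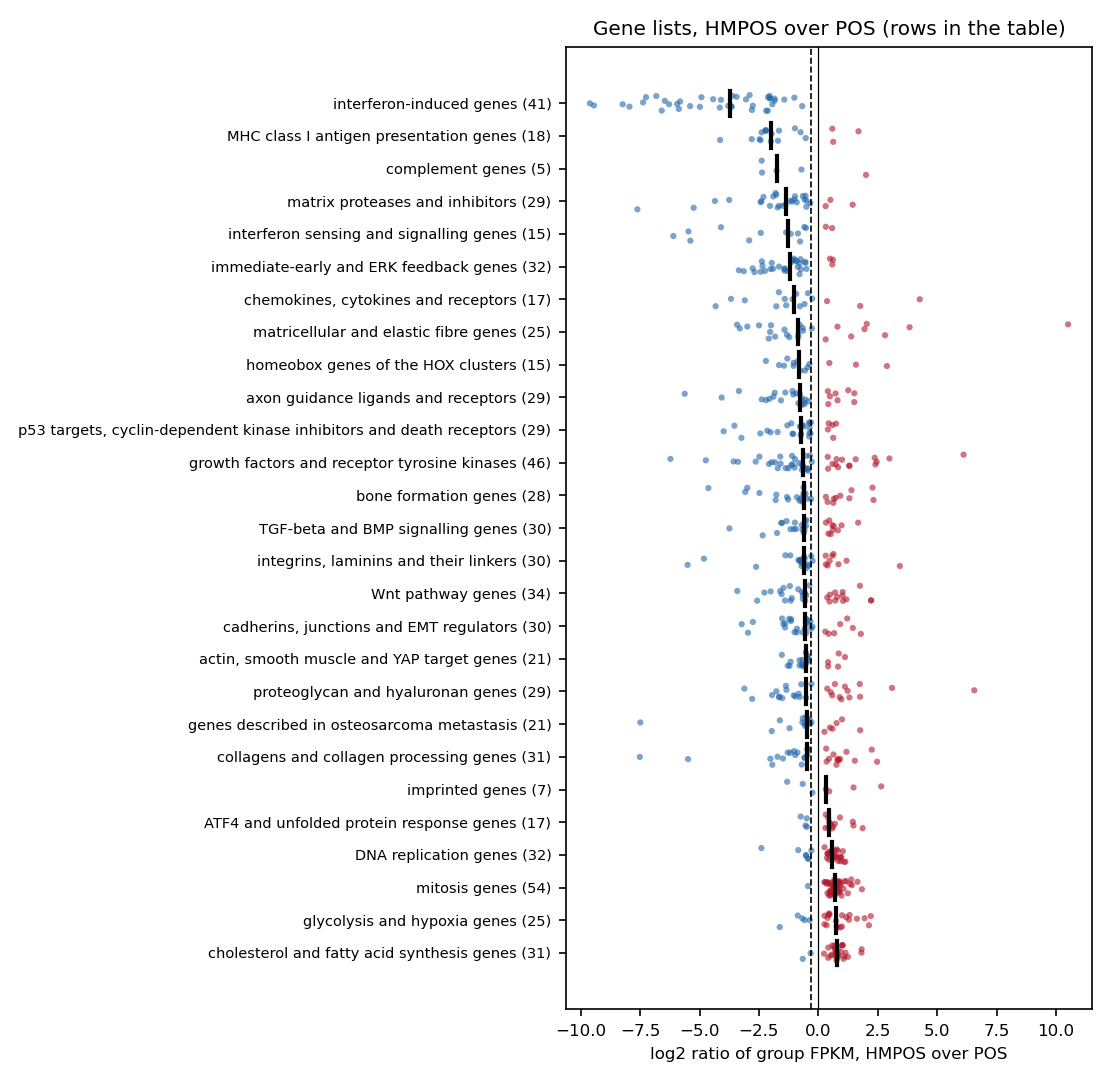
Log2 ratio of group FPKM (HMPOS over POS, x axis) of each listed member above 0 in both lines (points) of 27 gene lists, with the number of rows in brackets, including rows at 0 that cannot be drawn; black bars are list medians, the solid line is equality and the dashed line the median of all listed genes (−0.31). Interferon-induced genes lie farthest left (median −3.73), and mitosis (0.71), glycolysis and hypoxia (0.75) and cholesterol and fatty acid synthesis genes (0.77) lie right of equality.

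Bone matrix genes differed strongly, while most factors that set the lineage were within 2-fold. Of 9 listed genes of bone matrix and mineralisation, 6 (66.7%, against 19.1% of all) were over 2-fold higher in POS and 2 (22.2%, against 8.49%) in HMPOS. BGLAP (osteocalcin), a late product of osteoblasts, had 27.3 FPKM in HMPOS and 676 in POS. The pyrophosphate transporter ANKH had 6.49 and 54.9, and SPP1 (osteopontin) had 1.73 and 13.8. The phosphatase PHOSPHO1, which starts mineral formation in matrix vesicles, had 15.1 FPKM in HMPOS and 3.04 in POS, and shares its locus with another row. OMD (osteomodulin) had 1066 FPKM in HMPOS and 431 in POS, and OGN (osteoglycin) had 238 and 919, opposite directions for a pair of genes given the same locus, whose reads may not be cleanly divided. Of the 12 listed transcription factors of bone formation, 1 was over 2-fold higher in each line, namely SOX6 in HMPOS (1.77 and 0.674 FPKM) and RUNX3 in POS (4.09 and 9.87). That was 8.33% on each side, against 8.49% of all listed genes in HMPOS and 19.1% in POS. TNFRSF11B (osteoprotegerin), the decoy receptor that restrains osteoclasts, had 74.5 FPKM in HMPOS and 15.4 in POS.

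Collagens were split between the lines. COL1A1, the main chain of bone collagen, had 75.9 FPKM in HMPOS and 213 in POS, and COL5A2 had 511 and 1249. The 3 chains of type VI collagen, a microfibril around cells, were all over 2-fold higher in POS. COL6A3 had the widest gap of the listed collagens, at 0.272 FPKM in HMPOS and 49.7 in POS. COL6A1 had 150 and 494 FPKM and COL6A2 had 33.3 and 128, and the table gives both the same locus as COL18A1 (9.85 and 40.0). The basement membrane chain COL4A1 had 0.0771 FPKM in HMPOS and 3.45 in POS. COL3A1 and COL2A1 went the other way, with 56.6 and 1.52 FPKM in HMPOS against 10.2 and 0.321 in POS. Over the 31 listed collagen and collagen-processing genes, 9 (29.0%, against 19.1% of all) were over 2-fold higher in POS and 4 (12.9%, against 8.49%) in HMPOS, and centring turned this to 6 and 9. The 15 processing enzymes among them held 1 gene over 2-fold higher in POS (6.67%, against 19.1% of all) and 2 in HMPOS (13.3%, against 8.49%). After centring these counts were 0 and 6. The listed genes over 2-fold higher in POS were thus mostly collagen chains.

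Among matricellular proteins, the thrombospondins separated the lines in opposite directions. THBS2 (chr1:56400873-56427286, CanFam3.1) had 76.2 FPKM in HMPOS and 0.0523 in POS, the highest log2 ratio in the table at 10.51. THBS3 had 25.3 FPKM in HMPOS and 6.16 in POS. THBS1, in contrast, had 5.01 FPKM in HMPOS and 53.7 in POS. All 3 are secreted glycoproteins of the same family, and the sum over the family would hide these directions. The CCN proteins WISP2 and CTGF had 1.31 and 0.329 FPKM in HMPOS against 13.0 and 1.86 in POS. Of the elastic fibre genes, FBN1 had 35.3 FPKM in HMPOS and 13.5 in POS, and FBN2 had 1.25 and 5.31, so the 2 fibrillins were also opposed. Over the 25 listed matricellular and elastic fibre genes, 11 (44.0%, against 19.1% of all) were over 2-fold higher in POS. Another 6 (24.0%, against 8.49%) were over 2-fold higher in HMPOS, and after centring the counts were 10 and 7.

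Proteoglycans showed a similar mixture. VCAN (versican), a large hyaluronan-binding proteoglycan, had 8.47 FPKM in HMPOS and 26.5 in POS, a log2 ratio of −1.65. ACAN (aggrecan), its relative in cartilage, had 2.99 and 25.9. Their link protein HAPLN1, which clamps such proteoglycans to hyaluronan, had 11.6 FPKM in HMPOS and 0.123 in POS, and HAS2, which makes hyaluronan, had 12.0 and 3.57. The small leucine-rich proteoglycans BGN (biglycan) and LUM (lumican) had 164 and 52.0 FPKM in HMPOS against 559 and 163 in POS. The heparan sulfate carrier SDC1 had 70.6 FPKM in HMPOS and 32.6 in POS, while AGRN (agrin) had 15.6 and 44.7. Of 29 listed genes, 10 (34.5%, against 19.1% of all) were over 2-fold higher in POS and 7 (24.1%, against 8.49%) in HMPOS, and centring turned this to 9 and 10.

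Proteases of the matrix and their inhibitors were on the POS side together. Of 29 listed rows, 26 were higher in POS, 18 of them over 2-fold (62.1%, against 19.1% of all), and 1 was over 2-fold higher in HMPOS (3.45%, against 8.49%). The collagenase MMP13 had 6.54 FPKM in HMPOS and 1286 in POS, and the gelatinase MMP2 was within 2-fold, at 243 and 457. CTSK (cathepsin K), the bone collagenase of the lysosome, had 13.9 FPKM in HMPOS and 529 in POS. The cathepsins CTSS and CTSH had 1.29 and 24.3 FPKM in HMPOS against 26.3 and 128 in POS. The inhibitors stood on the same side as the enzymes. TIMP3, the matrix-bound inhibitor of metalloproteinases, had 6.52 FPKM in HMPOS and 88.2 in POS. TIMP1 had 66.5 and 145, TIMP2 had 54.5 and 141, and the cathepsin inhibitor CST3 had 26.9 and 91.9. All 8 listed inhibitors and all 7 listed genes of the cathepsin and plasminogen class were higher in POS, also after centring. Those 7 were cathepsin genes and the heparanase gene HPSE, and no gene of the plasminogen system was among them. ADAM12, a membrane-bound sheddase, was the gene over 2-fold higher in HMPOS, at 4.29 FPKM against 1.58.

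**Figure D4:**
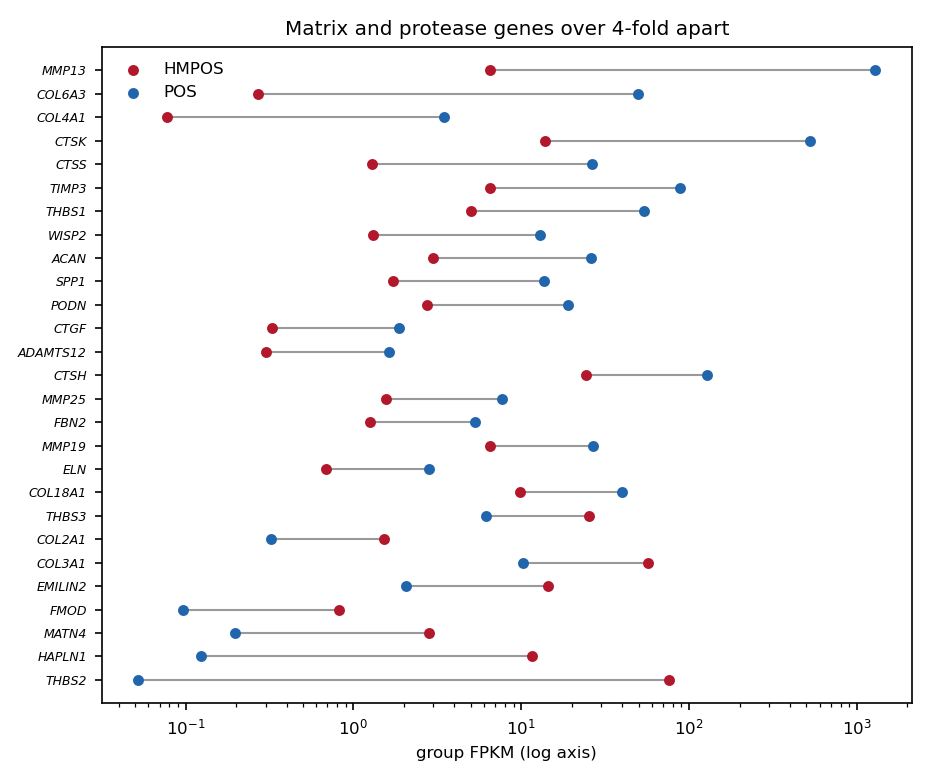
Group FPKM on a logarithmic x axis of the 27 listed matrix, proteoglycan, matricellular and protease genes over 4-fold apart and above 0 in both lines, 1 gene per line, red for HMPOS and blue for POS. Of these, 19 were higher in POS, from MMP13 (6.54 and 1286 FPKM) at the top, and 8 were higher in HMPOS, to THBS2 (76.2 and 0.0523) at the bottom.

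Of 30 listed integrin, laminin and linker genes, 5 were over 2-fold higher in POS (16.7%, against 19.1% of all listed genes). Another 2 were over 2-fold higher in HMPOS (6.67%, against 8.49%). ITGB1, the beta chain shared by most matrix integrins, was within 2-fold at 251 FPKM in HMPOS and 203 in POS. The collagen receptor chain ITGA11 had 3.79 FPKM in HMPOS and 23.3 in POS, and ITGB5, a vitronectin receptor chain, had 117 and 305. The laminin chains LAMA4 and LAMA1 had 0.219 and 0.0592 FPKM in HMPOS against 9.94 and 1.67 in POS. Between cells, the gap junction protein GJA1 (connexin 43), abundant in osteoblasts, had 109 FPKM in HMPOS and 846 in POS. The regulators of the mesenchymal state were mixed. SNAI1 had 18.95 FPKM in HMPOS and 5.50 in POS, TWIST2 had 28.7 and 12.4, FOXC2 had 1.86 and 4.36, and the intermediate filament gene VIM had 1983 and 2930.

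Growth factors and their receptors included some of the largest differences in both directions. Over 2-fold higher in POS were 17 of 46 listed genes (37.0%, against 19.1% of all). In HMPOS it was 8 (17.4%, against 8.49%), and centring turned the counts to 13 and 12. PTN (pleiotrophin), a heparin-binding growth factor made in bone, had 76.7 FPKM in HMPOS and 2047 in POS. FGF7 and FGF10, ligands of the same receptor isoform, were opposed. FGF7 had 7.21 FPKM in HMPOS and 0.104 in POS, whereas FGF10 had 0.0826 and 6.19. HGF had 1.59 FPKM in HMPOS and 0.301 in POS, and ANGPT1, a ligand of the endothelial receptor TEK, had 15.6 and 5.25. GAS6, the ligand of the AXL family, had 42.8 FPKM in HMPOS and 181 in POS. IGFBP2, which binds insulin-like growth factors, had 68.9 FPKM in HMPOS and 12.6 in POS. Among receptors, EGFR had 1.38 FPKM in HMPOS and 8.57 in POS, and the ephrin receptor EPHA5 had 7.67 and 0.967. FGFR1 had 242 and 484, and it shares its locus with another row.

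Genes known to respond to MAP kinase signalling were mostly higher in POS. Of 14 listed feedback genes, 14 were higher in POS and 11 were over 2-fold higher (78.6%, against 19.1% of all), with a median log2 ratio of −1.43. After centring, 9 were over 2-fold higher in POS. The phosphatase DUSP6, which removes phosphate from ERK, had 0.388 FPKM in HMPOS and 2.64 in POS, and DUSP4 had 0.819 and 8.33. The inhibitor SPRY2 had 2.66 FPKM in HMPOS and 14.4 in POS, and the transcription factor ETV1 had 0.991 and 8.75. The immediate-early factors EGR1 and FOS had 5.29 and 2.49 FPKM in HMPOS against 27.0 and 11.8 in POS. In their class 9 of 12 listed genes were higher in POS and 3 in HMPOS. The difference was over 2-fold for 4 on the POS side (33.3%, against 19.1% of all), also 4 after centring. MYC was one of the 3 rows of this list on the HMPOS side, at 53.7 FPKM against 38.3. All 6 listed NF-kB genes were also higher in POS, 4 of them over 2-fold (66.7%, against 19.1% of all) and 2 after centring. TNFAIP3 (A20), a brake on NF-kB, had 0.631 FPKM in HMPOS and 4.08 in POS.

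In the TGF-beta and BMP pathway the ligands were divided. TGFB2 had 9.10 FPKM in HMPOS and 46.2 in POS, BMP2 had 7.10 and 17.99, and INHBA had 2.12 and 6.25. BMP4 was just within 2-fold, at 111 FPKM in HMPOS and 56.4 in POS, and BMP5 had 2.83 FPKM in HMPOS and was listed at 0 in POS. The targets ID3 and ID4, inhibitors of helix-loop-helix factors, had 34.5 and 0.875 FPKM in HMPOS against 115 and 11.7 in POS, and the inhibitor SMAD7 had 5.54 and 16.05. Over the 30 listed genes of this pathway, 9 (30.0%, against 19.1% of all) were over 2-fold higher in POS. Another 2 (6.67%, against 8.49%) were over 2-fold higher in HMPOS, and after centring the counts were 7 and 4. In the Wnt pathway, 11 of 34 listed genes (32.4%, against 19.1% of all) were over 2-fold higher in POS and 8 (23.5%, against 8.49%) in HMPOS, and centring turned this to 8 and 11. The secreted antagonist SFRP2 was very abundant in both lines, at 1889 FPKM in HMPOS and 4339 in POS, and SFRP4 had 2.51 and 26.8. The antagonists APCDD1 and WIF1 went the other way, with 70.5 and 104 FPKM in HMPOS against 15.2 and 51.4 in POS. The factors were opposed too, since LEF1 had 18.4 FPKM in HMPOS and 8.97 in POS and TCF7L2 had 1.46 and 4.44.

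Genes of cell division were mostly higher in HMPOS. Of 54 listed mitosis genes, 53 were higher in HMPOS (98.1%, against 47.7% of all listed genes), with a median log2 ratio of 0.71. The difference was over 2-fold for 9 of them (16.7%, against 8.49%), and for 30 after centring. The exception was CENPM, a kinetochore subunit, at 12.2 FPKM in HMPOS and 16.5 in POS (named after its values were seen). CCNA2 (cyclin A2) had 150 FPKM in HMPOS and 47.9 in POS and shares its locus with EXOSC9, which had 44.6 and 20.6. The kinase AURKA, which builds the spindle poles, had 155 FPKM in HMPOS and 61.6 in POS, and PLK4, which duplicates centrioles, had 30.0 and 11.2. ECT2, needed for the cleavage furrow, had 101 FPKM in HMPOS and 28.4 in POS, and the condensin subunit SMC4 had 158 and 60.7. The main mitotic kinase CDK1 was within 2-fold, at 316 FPKM in HMPOS and 219 in POS. DNA replication genes were higher in HMPOS for 25 of 32 listed rows (78.1%, against 47.7% of all), with a median of 0.55. Only 3 were over 2-fold higher in HMPOS (9.38%, near the 8.49% of all), and 1 was over 2-fold higher in POS. The helicase subunit MCM4 had 113 FPKM in HMPOS and 51.6 in POS, and the origin subunit ORC4 had 83.9 and 41.1. E2F2 went the other way, at 1.64 FPKM in HMPOS and 8.65 in POS.

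On the opposing side of the cycle, the cyclin-dependent kinase inhibitors CDKN1A (p21) and CDKN1B (p27) had 5.32 and 26.2 FPKM in HMPOS against 11.3 and 43.6 in POS. Cyclin D2 (CCND2), which drives the entry into the cycle, was also higher in POS, at 18.4 FPKM against 1.59 in HMPOS. Of 10 listed genes of death receptor signalling and the BCL2 family, 8 were higher in POS (against 52.3% of all listed genes). The difference was over 2-fold for 6 of them (60.0%, against 19.1% of all), and for 5 after centring. The ligand TNFSF10 (TRAIL), which interferon also induces, had 1.68 FPKM in HMPOS and 26.6 in POS. The initiator caspase CASP8 had 2.47 and 23.3, and its inhibitor CFLAR had 11.5 and 62.5, so both the trigger and its restraint were on the same side. No gene of this list was over 2-fold higher in HMPOS, while 11 of 29 were over 2-fold higher in POS (37.9%, against 19.1% of all). After centring the counts were 1 and 8.

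Most listed metabolic genes were on the HMPOS side. In glycolysis 12 of 13 listed genes were higher in HMPOS (92.3%, against 47.7% of all), 3 of them over 2-fold (23.1%, against 8.49%). The entry enzyme HK2 had 27.5 FPKM in HMPOS and 7.16 in POS, PGK1 had 810 and 331, and the lactate exporter SLC16A3 had 10.7 and 3.47. GAPDH had 3264 FPKM in HMPOS and 1893 in POS, and ENO1 had 1673 and 878. The exception was ALDOC, at 113 and 181 (named after its values were seen). Of 12 listed genes of the hypoxia response, 8 were higher in HMPOS (66.7%, against 47.7% of all) and 4 in POS. Over 2-fold higher were 4 in HMPOS (33.3%, against 8.49%) and 1 in POS. The oxygen sensor EGLN3 had 27.4 FPKM in HMPOS and 5.95 in POS, and DDIT4, an inhibitor of mTOR, had 135 and 30.8. HMOX1 (heme oxygenase) was opposed, at 29.4 FPKM in HMPOS and 90.9 in POS. In sterol and fatty acid synthesis 29 of 31 listed genes were higher in HMPOS (93.5%, against 47.7% of all), with a median of 0.77. Of these, 9 were over 2-fold higher (29.0%, against 8.49%), and 21 after centring. ACLY, which makes cytosolic acetyl-CoA, had 434 FPKM in HMPOS and 184 in POS, and the desaturase FADS1 had 101 and 28.7. The 2 genes on the POS side were SREBF2, the transcription factor of this pathway, at 50.7 FPKM in HMPOS and 80.05 in POS, and SCD5, at 25.7 and 32.2 (both named after their values were seen). Targets of ATF4, the factor of the amino acid response, were higher in HMPOS for 7 of 8 rows (87.5%, against 47.7% of all). Among the 8, 3 were over 2-fold higher in HMPOS (37.5%, against 8.49%). CHAC1, a glutathione-degrading enzyme, had 9.59 FPKM in HMPOS and 2.64 in POS, and the amino acid transporter SLC7A5 had 74.2 and 26.7.

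Many of the most extreme genes belonged to none of these pathways. S100A6 and S100A4 are small calcium-binding proteins encoded side by side on chromosome 7. S100A6 had 7.51 FPKM in HMPOS and 1354 in POS, and S100A4 had 596 and 1835. The locus given for S100A4 is shared with ILF2, a nuclear RNA-binding protein, which had 476 FPKM in HMPOS and 278 in POS. Of the 15 lowest ratios, 7 were interferon-induced genes. Others were CNTNAP4 (0.0253 FPKM in HMPOS, 15.1 in POS), a neurexin-like adhesion protein, the receptor phosphatase PTPRD (0.0116 and 6.73), the mitochondrial acyl-CoA synthetase ACSS3 (0.0193 and 10.8) and the folate receptor FOLR2 (0.120 and 53.9). The 15 highest ratios contained no interferon-induced gene. Among them were SMARCA1, an ATPase of chromatin remodelling (10.9 FPKM in HMPOS, 0.0403 in POS), the neuronal intermediate filament PRPH (54.0 and 0.318), the insulin receptor adaptor DOK5 (38.4 and 0.297), the sphingomyelinase SMPD3 (10.02 and 0.0795), the secreted factor NDNF (54.1 and 1.22) and the protease inhibitor SERPINI1 (58.7 and 2.16). SMPD3 and PANX3 (9.04 and 0.186), a pannexin channel, are both expressed in developing bone.

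By absolute difference among genes with a symbol, the largest gap was that of B2M in POS and of the ribosomal protein gene RPL7 in HMPOS, at 3729 FPKM in HMPOS and 1471 in POS. The fatty acid carrier FABP3 had 3646 and 1812 FPKM, and the peroxidase PRDX1 had 3501 and 2275. Ribosomal protein genes stood at both ends, since RPS27 had 1217 FPKM in HMPOS and 2427 in POS. Such genes have many processed copies in the genome, and how reads of the copies were counted is not given in the sources used here. A value of 0 in 1 line was listed for 28 genes, 15 at 0 in POS and 13 at 0 in HMPOS. Beside CXCL14 and BMP5, those with at least 1 FPKM in the other line included the actin regulator RFLNB (8.56 FPKM in HMPOS) and the homeobox gene HOXB6 (5.61 FPKM in HMPOS). Listed at 0 in HMPOS were MKS1, a gene of the primary cilium (6.004 FPKM in POS), the scaffold gene LIN7A (4.19) and SNAP25, a gene of vesicle fusion (1.96). No ratio is given for these genes, since the count behind a 0 is unknown.

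The direction of the differences was uneven along the genome. On 6 of 39 chromosomes over 75% of the listed genes were higher in HMPOS, on 5 under 25% were, and 28 lay between. On chromosome 29, 89 of 92 listed genes were higher in HMPOS, with a median log2 ratio of 1.05 and 50 genes over 2-fold. The 3 on the POS side were CPQ (3.05 FPKM in HMPOS, 21.5 in POS), MSC (1.08 and 6.08) and PLAG1 (0.310 and 0.595), all named after their values were seen. On chromosome 34 it was 86 of 96 genes, with a median of 0.97, and on chromosome 19 it was 71 of 81, with a median of 0.81. On chromosome 38, by contrast, 73 of 74 genes were higher in POS, with a median of −0.79, the exception being the proteoglycan gene FMOD (0.823 FPKM in HMPOS, 0.0961 in POS). On chromosome 10 it was 211 of 237 genes, with a median of −0.68. In windows of 10 Mb with at least 20 listed genes, 3 of 130 had over 90% of genes higher in HMPOS, all on chromosome 29. Another 11 windows had under 10% higher in HMPOS, of which 4 were on chromosome 10 and 3 on chromosome 38. Chromosomes 29, 34 and 38 leaned to one line in each of their windows, those with fewer genes included. The same held for several other chromosomes, among them 10 toward POS and 33 and 35 toward HMPOS. DNA of the lines was not analysed here.

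**Figure D5:**
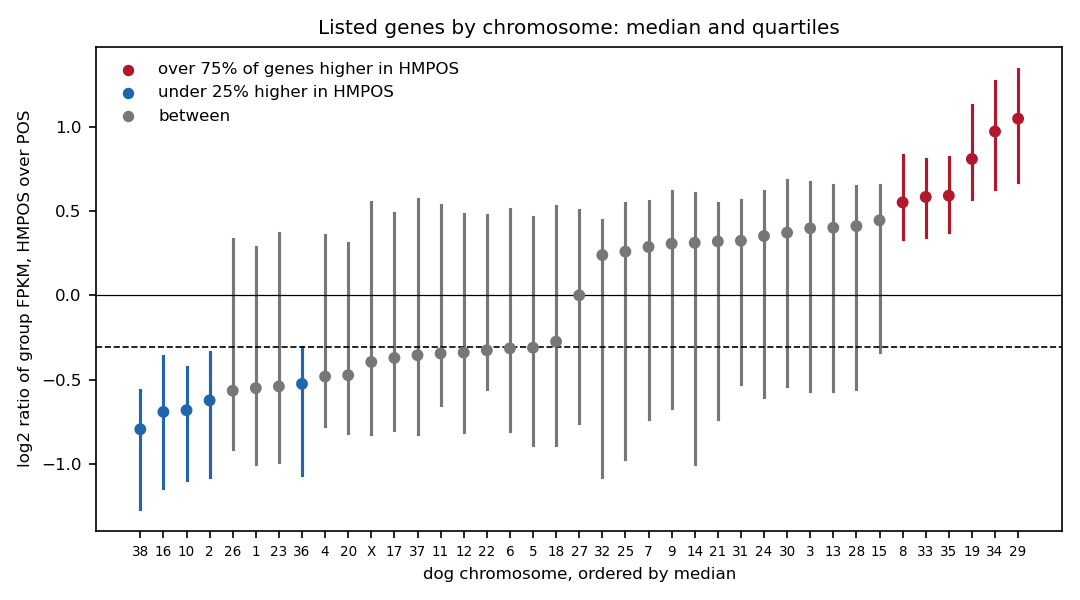
Median (point) and quartiles (vertical line) of the log2 ratio of group FPKM, HMPOS over POS, of the listed genes above 0 in both lines on each of the 39 dog chromosomes, ordered by median; the solid line is equality and the dashed line the median of all listed genes (−0.31). Chromosomes 29 (median 1.05), 34 and 19 lie highest, and chromosome 38 (median −0.79) lowest; near-zero medians such as that of chromosome 27 mark an even split, since no listed ratio is near 0.

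Several genes described above lie on these chromosomes. RPL7, MCM4 and SNAI2 (93.8 FPKM in HMPOS, 59.2 in POS) are on chromosome 29, and ECT2, SMC4, SERPINI1 and BCHE (1.04 and 0.0166) are on chromosome 34. CCNA2, PLK4, ORC4, NDNF and CXCR4 are on chromosome 19, and TGFB2 is on chromosome 38. When each ratio was centred on the median of its own chromosome, a check added after the data were seen, the median of the mitosis genes was 0.63 in place of 0.71. That of the DNA replication genes was 0.24 in place of 0.55. The interferon-induced genes were at −3.99 in place of −3.73, with 40 of 41 still lower in HMPOS than their chromosome's median and PNPT1 at the median itself.

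Of 39 genes described in osteosarcoma metastasis, 21 were listed, 14 higher in POS and 7 higher in HMPOS. Over 2-fold higher in POS were S100A6, S100A4, CAV1 (caveolin 1, 10.5 FPKM in HMPOS and 24.3 in POS) and the AP-1 factor FOSL1 (2.33 and 9.09). Over 2-fold higher in HMPOS were CXCR4 and the stem cell factor SOX2, which had 0.870 FPKM in HMPOS and was listed at 0 in POS. EZR (ezrin), a linker between membrane and actin, was within 2-fold, at 149 FPKM in HMPOS and 211 in POS. The share over 2-fold higher in POS, 19.05%, was that of all listed genes (19.1%).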

How the data were processed

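RNA of 3 parental HMPOS and 3 parental POS libraries was analysed as 1 deposited table. The authors deposited 1 FPKM per gene and group, for genes their test called significant. Per the submitters' processing notes the tools were Trimmomatic 0.38, TopHat2, Cufflinks and Cuffdiff with CanFam3.1, whereas the article's methods name STAR, voom and limma. The labels name an RNeasy and a NEBNext Ultra Directional kit, and the article names the miRNeasy and TruSeq Stranded kits. How reads shared by overlapping or copied genes were counted is not given in the sources used here. The deposited log2 ratio, test statistic score, p-value and q-value columns hold the authors' own results and were not used. Values of single libraries were not analysed here, so depth and replicate spread are unknown, and no test, SD or interval was computed. Unused columns of single samples numbered 0.

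The word norm in the column names was taken to mean parental, because it is also used for POS, which has no extravasated libraries. Log2 ratios of HMPOS over POS were recomputed from the group FPKM without a pseudocount, and the 28 genes at 0 in 1 group were counted but given no ratio. Of the rows, 209 share their locus with another row, 12 carry Rfam names and 154 were under 1 FPKM in both groups. Gene lists were matched by symbol, with older symbols merged, and 5503 symbols were in the RefSeq gene table of assembly UU_Cfam_GSD_1.0, used for names alone. Gene coordinates are those of the deposited table, whose counting base is not given in the sources used here. Named were the 15 genes with a symbol with the largest and the 15 with the smallest ratio (above 0 in both groups, higher value at least 1 FPKM), the 10 with the largest FPKM difference in each direction, genes at 0 in 1 group with at least 1 FPKM in the other, list members over 2-fold apart with up to 4 others of the highest FPKM per list, and VCAN. EXOSC9 and ILF2 (a shared locus), unlisted markers and the exceptions said to be so were named after values were seen. The lists and the comparison were chosen with earlier results of these data known. The alternatives were other folds, a filter at 1 FPKM, pseudocounts of 1 and 0.1 FPKM, centring on the median, 1 row per symbol and leaving out rows at 0. The ratio and count functions were tested on simulated data. Python 3.11.15, numpy 2.4.6, pandas 2.3.3 and matplotlib 3.10.9 were used.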

Additional observations from a re-analysis of the deposited data

How the results depend on the processing

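A fold above 1.5 gave 1355 genes on the HMPOS side and 1974 on the POS side, a fold above 4 gave 139 and 387, and any fold gave 2743 and 3003, in place of 488 and 1099. Centring on the median of all listed genes gave 1006 and 759, the first over 1.5 times the uncentred count. A filter at 1 FPKM gave 452 and 1028, a pseudocount of 1 FPKM gave 332 and 782, 1 row per symbol gave 488 and 1097, and leaving out rows at 0 gave 473 and 1086. The median of all listed genes was −0.28 with a pseudocount of 1 FPKM in place of −0.31. The median of the interferon-induced genes was −3.67 with the filter, −2.78 and −3.54 with pseudocounts of 1 and 0.1 FPKM, −3.43 after centring on all listed genes and −3.99 after centring on the same chromosome, the last chosen after seeing the data. Of 32 list medians (31 with the filter, which left no adipocyte marker), 0 changed sign under each of these 5 settings. For the shifts of these values the cause was not tested beyond what each setting does by construction.

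No paired analysis was possible because the table holds 1 value per group. For the same reason leaving out replicates, a within-batch value and tests on counts were not run. Every difference described here therefore has no replicate check, the fragments behind a low FPKM are unknown, and ratios of genes near 0 in 1 line move most with a pseudocount. Genes that were not listed limit every list to its called members.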

Other observations

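Positional and guidance genes also separated the lines. Of 52 homeobox genes of the HOX clusters, 15 were listed. The B cluster genes HOXB6, HOXB7 and HOXB8 were on the HMPOS side, with 5.61, 7.62 and 1.11 FPKM in HMPOS against a listed 0, 2.55 and 0.151 in POS. HOXA10 had 3.58 FPKM in HMPOS and 9.75 in POS, and HOXD4 had 0.524 and 2.42. These genes mark position along the body axis. Of the 15 listed, 6 were over 2-fold higher in POS (40%, against 19.1% of all listed genes), and 4 after centring. These 6 belonged to the A and D clusters. Another 3 were over 2-fold higher in HMPOS (20%, against 8.49%), also 3 after centring. Of 15 listed netrin, slit, ephrin and related genes, 13 were higher in POS, 8 of them over 2-fold (53.3%, against 19.1% of all listed genes). The slit receptor ROBO1 had 0.279 FPKM in HMPOS and 13.8 in POS, and its ligands SLIT2 and SLIT3 had 1.41 and 9.50 FPKM in HMPOS against 7.34 and 43.6 in POS. The semaphorins were mixed, with SEMA3A at 0.576 FPKM in HMPOS and 5.86 in POS and SEMA3B at 19.3 and 6.79. The complement proteases C1R and C1S had 16.02 and 20.1 FPKM in HMPOS against 83.7 and 68.0 in POS, and their inhibitor SERPING1 had 1.46 and 7.57. Among imprinted genes, GRB10, an adaptor that restrains insulin signalling, had 15.8 FPKM in HMPOS and 2.53 in POS, and SNRPN had 211 and 75.6.

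The same parental HMPOS libraries also served as the control for HMPOS cells that had left zebrafish vessels, in a table normalized separately. Over the 907 genes above 0 that both tables list, the parental HMPOS values differed by a median of 0.00135 on the log2 scale. Some genes described above were listed there too, and their values are set side by side. PTN had 358 FPKM in extravasated and 76.8 in parental HMPOS cells, beside 2047 in POS. CTSK had 48.3 and 13.9, beside 529 in POS, and ISG15 had 12.5 and 3.20, beside 791 in POS. COL6A3 had 0.901 and 0.272, beside 49.7 in POS. In these genes the extravasated cells lay between parental HMPOS and POS, but others went the other way. TGFB2 had 5.51 FPKM in extravasated and 9.11 in parental HMPOS cells, beside 46.2 in POS, and IL11RA had 87.0 and 59.0, beside 3.06 in POS. Among genes on the HMPOS side, CXCL14 had 1.86 FPKM in extravasated and 20.5 in parental HMPOS cells, beside a listed 0 in POS. FGF7 had 1.11 and 7.22, beside 0.104 in POS. PRPH had 12.3 and 54.0, beside 0.318 in POS, and NDNF had 18.03 and 54.2, beside 1.22. Other genes on the HMPOS side lay further from POS in extravasated cells. COL3A1 had 822 FPKM in extravasated and 56.7 in parental HMPOS cells, beside 10.2 in POS. FADS1 had 161 and 102, beside 28.7 in POS, and THBS3 had 51.5 and 25.3, beside 6.16. VCAN, which was higher in POS, also lay further from POS, with 3.998 and 8.48, beside 26.5. These genes were chosen after their values were seen, the comparisons share the parental libraries, and values across the tables were not tested.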
